A study of Mus musculus with 4 samples.

Results

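The cytokines and growth factors that sustain microglia were followed in the cortex of APPswe/PS1ΔE9 mice as a set of 9 genes: the ligands Csf1, Il34, Tgfb1, Tgfb2, Tgfb3 and Igf1, and the receptors Tgfbr1, Tgfbr2 and Igf1r. A row of the count table belonged to the set where its gene symbol was that of a member, whatever the case of the letters, which gave 12 transcripts of 37539 and 9 genes of the 18386 features obtained by summing transcripts per gene. The rule uses gene symbols and no measured value, but the members were chosen with earlier results of these data known. All 9 genes were counted in each of the 4 libraries.

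Microglia, the resident macrophages of the brain, need signals from their surroundings to live and to keep their identity. The receptor CSF1R, carried in the brain mainly by microglia, is bound by CSF1 and by IL-34, the latter made largely by neurons. TGF-β is secreted bound to a latency peptide, is freed by integrins at the cell surface, and then joins the type II receptor TGFBR2 with the type I receptor TGFBR1, which phosphorylates SMAD2 and SMAD3. Insulin-like growth factor 1 acts through the tyrosine kinase IGF1R, and its supply is set by binding proteins.

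Cortical RNA came from 2 male APPswe/PS1ΔE9 mice (APP; libraries APP-3 and APP-4) and 2 male WT mice (WT-1 and WT-2), all 12 months old. APP mice descend from line 85Dbo on a C57BL/6 background and carry a mouse/human APP transgene with the Swedish mutation and a human PS1 transgene lacking exon 9, both driven by a mouse prion protein promoter, while the WT controls were C57BL/6J mice. Ribosomal RNA was depleted and strand-specific paired reads were counted on each transcript, with 28525117 to 43881196 counts in a library, lower in both APP libraries than in either WT library. As a check of the genotype labels, the App row held 2679 and 2388 CPM in APP and 857 and 905 CPM in WT, where CPM is the count scaled to a common library size after TMM normalization. The Prnp row, the gene whose promoter drives the transgenes, held 1856 and 1622 CPM in APP and 527 and 535 CPM in WT. Reads of the transgenes cannot be told apart from those of the mouse genes in these rows. The test between groups was the quasi-likelihood test of edgeR, adjusted by Benjamini-Hochberg over all 18386 features. A gene was called where its adjusted p was under 0.05 and its fold change was 1.5 or more, the cut-offs of the study. The adjusted p rests on a spread that edgeR shares across genes, and it measures the spread between these 4 libraries only: a two-sided exact permutation test on a single gene has 0.333 as its smallest p here.

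Among the members, the type II receptor Tgfbr2 was the gene that passed both cut-offs, at 1.87 times its WT level. The type I receptor Tgfbr1 passed the adjusted p with a fold change of 1.44, below the second cut-off, and the remaining 7 members passed neither. Thus 1 of 9 members was past both cut-offs, where 0.881% of all features were (0.843% higher and 0.0381% lower in APP), and 2 of 9 passed the adjusted p, where 1.14% of all features did (1.02% higher and 0.12% lower). The 2 APP libraries lay above the 2 WT libraries for 5 members, below them for 2 and among them for 2. Groups also failed to overlap for 42.7% of all features (21.3% above and 21.4% below), so this count says little about the members. The median log2 fold change, APP over WT, was 0.15 over the 9 members and -0.0011 over all features.

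**Figure D1:**
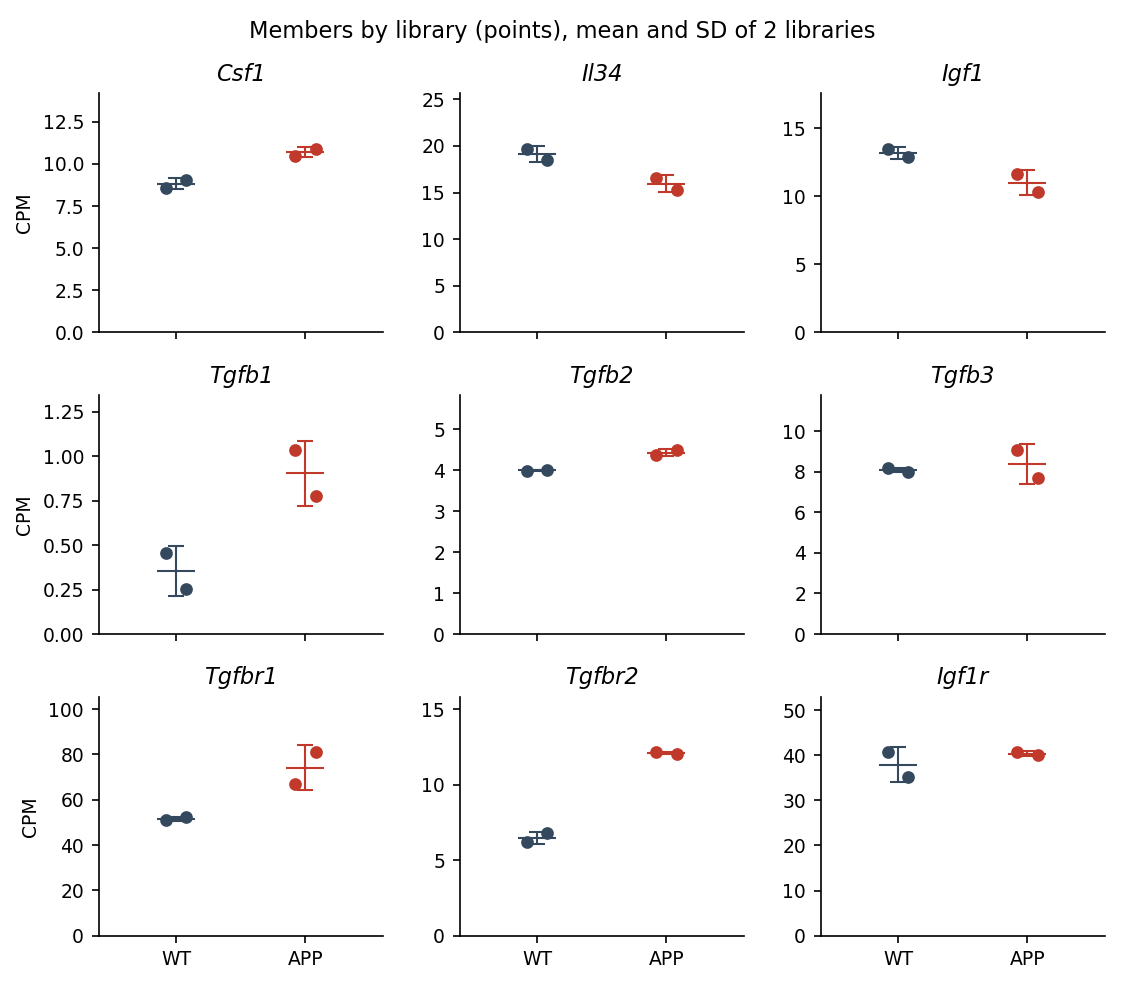
CPM (vertical axes, from 0) of each member in the 2 WT (dark blue) and 2 APP (red) libraries. Points are libraries, horizontal bars are group means and error bars are SDs of 2 libraries. Tgfbr2 and Tgfbr1 lie higher in both APP libraries, Il34 and Igf1 lie lower, and the groups overlap for Tgfb3 and Igf1r.

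The 2 ligands of CSF1R moved in opposite directions by small amounts, and neither passed the test. Csf1, which encodes macrophage colony-stimulating factor (chr3:107741048-107760469, minus strand, 9 exons, GRCm38), was at 10.5 and 10.9 CPM in APP and at 8.60 and 9.06 CPM in WT. Both APP libraries were higher than both WT libraries, but the log2 fold change of 0.28 (SE 0.12, 95% interval 0.0094 to 0.55) had an adjusted p of 0.391 by edgeR. Il34, which encodes the alternative ligand of the same receptor (chr8:110741840-110805903, minus strand, 7 exons), was at 16.6 and 15.3 CPM in APP and at 19.7 and 18.5 CPM in WT. Both APP libraries were here lower than both WT libraries, and the log2 fold change of -0.26 (SE 0.093, 95% interval -0.47 to -0.050) had an adjusted p of 0.290. For both ligands the unadjusted interval left out 0 while the adjusted p did not pass, and it left out a fold change of 1.5 in either direction.

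The receptor of these ligands, Csf1r, is not a member, but it stood higher in APP. It was at 65.5 and 81.1 CPM in APP and at 46.9 and 43.7 CPM in WT, with a log2 fold change of 0.69 (SE 0.10) and an adjusted p of 0.0174 by edgeR. Without library APP-4 its log2 fold change was 0.53, under the fold cut-off, and without the other libraries in turn it was between 0.65 and 0.84. Per transcript length, in TPM, which divides counts by transcript length before scaling, the ratio of Csf1r to Il34 was 1.74 and 2.34 in APP and 1.05 and 1.04 in WT. The ratio of Csf1r to Csf1 was 6.74 and 8.01 in APP and 5.87 and 5.21 in WT, and that of Il34 to Csf1 was 3.87 and 3.43 in APP and 5.60 and 4.99 in WT. In each of these ratios the groups did not overlap, and with 2 values a group none was tested. Groups failed to overlap for 42.7% of all features taken singly, so the lack of overlap says little. For the ratios that hold Il34 it follows from the levels themselves. Il34 was lower, and Csf1r and Csf1 were higher, in both APP libraries than in both WT libraries. The 13 colony-stimulating factors and related receptors listed around the members held 10 genes with counts after matching to GENCODE, and no transcript was matched to Csf2, Csf3 or Flt3l. Rows whose deposited symbol is Flt3l carried identifiers that GENCODE M21 did not match and stayed single features. Summed by that symbol they held 4818 and 5582 counts in APP and 6535 and 5228 counts in WT (log2 fold change 0.23, edgeR adjusted p = 0.199). Csf1r was the 1 of the 10 past both cut-offs, where 0.881% of all features were. The median log2 fold change of the 10 was 0.18. Among those with a mean of at least 1 CPM, the largest change was that of Csf3r, the receptor of granulocyte colony-stimulating factor, at 0.81 (adjusted p = 0.0652), and the most negative that of Csf2rb2, at -0.26 (adjusted p = 0.749). With DESeq2, and with the exact or the likelihood ratio test of edgeR, Csf3r was called as well.

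The TGF-β ligands were counted at low levels, and none passed the test. Tgfb1 (chr7:25687002-25705077, plus strand, 7 exons), the TGF-β made by microglia themselves, held only 30 and 24 counts in APP and 20 and 9 counts in WT, or 1.03 and 0.775 CPM against 0.455 and 0.254 CPM. Both APP libraries were above both WT libraries, and the log2 fold change was 1.32, but with an SE of 0.45 and a 95% interval from 0.29 to 2.35 its adjusted p was 0.271 by edgeR. Its interval was the widest of the 9 members. Tgfb2 (chr1:186622792-186705989, minus strand, 7 exons) was at 4.38 and 4.49 CPM in APP and at 3.98 and 4.01 CPM in WT, and its log2 fold change was 0.15 (SE 0.16, 95% interval -0.20 to 0.50, adjusted p = 0.783). Tgfb3 (chr12:86056745-86079041, minus strand, 7 exons) was at 9.06 and 7.68 CPM in APP and at 8.17 and 8.01 CPM in WT. The WT values of Tgfb3 lay between the 2 APP values, and its log2 fold change was 0.05 (SE 0.14, 95% interval -0.26 to 0.36, adjusted p = 0.935). The intervals of Tgfb2 and Tgfb3 left out a fold change of 1.5 in either direction, while that of Tgfb1 did not.

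Both TGF-β receptors stood higher in APP. Tgfbr2 (chr9:116088929-116175360, minus strand, 7 exons), the receptor that binds the ligand first, held 353 and 373 counts in APP and 273 and 240 counts in WT, although the APP libraries were the shallower ones. This was 12.2 and 12.0 CPM in APP and 6.21 and 6.77 CPM in WT, so that the APP libraries were close to each other and far above both WT libraries. The log2 fold change was 0.90 (SE 0.12, 95% interval 0.62 to 1.18) with an adjusted p of 0.0142 by edgeR. Without library WT-1 it was 0.84 and the adjusted p rose to 0.0595, so that the call was lost, while without each other library it was between 0.89 and 0.97 and the call remained. Leaving out a library also leaves the spread to be estimated within the other group.

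Tgfbr1 (chr4:47353222-47414931, plus strand, 9 exons), the kinase that Tgfbr2 activates, was at 67.1 and 81.1 CPM in APP and at 50.9 and 52.2 CPM in WT. The 2 WT libraries were nearly equal and below both APP libraries, which differed from each other. The log2 fold change was 0.52 (SE 0.093, 95% interval 0.31 to 0.74) with an adjusted p of 0.0377 by edgeR, and the interval held the fold cut-off. Without library APP-3 the log2 fold change was 0.65, past both cut-offs, and without APP-4 it was 0.38. Without WT-1 the adjusted p was 0.0978 and without WT-2 it was 0.105, so that it did not pass without either WT library. The level of Tgfbr1 exceeded that of Tgfbr2 in every library, by a TPM ratio of 3.53 and 4.40 in APP and of 5.40 and 5.07 in WT.

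The sequences just upstream of the 2 receptor genes are shown because these were the members that stood higher. Each is the 250 bases before the RefSeq start site on the strand of the gene (GRCm38.p6), in lower case, with matches to 6 short motifs in capitals. The motifs, searched on both strands, were the GC box (GGGCGG), the CCAAT box (these letters), the TATA box (TATAAA), the element bound by PU.1 (GAGGAA), the element bound by SMAD proteins (CAGAC) and the AP-1 element (TGANTCA). No matches overlapped in these windows. The Tgfbr2 window is chr9:116175364-116175613 on the minus strand and the Tgfbr1 window is chr4:47352972-47353221 on the plus strand.

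Tgfbr2 promoter: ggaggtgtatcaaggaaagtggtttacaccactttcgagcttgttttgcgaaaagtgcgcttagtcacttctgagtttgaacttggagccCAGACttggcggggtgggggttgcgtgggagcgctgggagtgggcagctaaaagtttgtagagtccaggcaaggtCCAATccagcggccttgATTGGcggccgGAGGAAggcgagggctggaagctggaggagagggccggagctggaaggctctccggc

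Tgfbr1 promoter: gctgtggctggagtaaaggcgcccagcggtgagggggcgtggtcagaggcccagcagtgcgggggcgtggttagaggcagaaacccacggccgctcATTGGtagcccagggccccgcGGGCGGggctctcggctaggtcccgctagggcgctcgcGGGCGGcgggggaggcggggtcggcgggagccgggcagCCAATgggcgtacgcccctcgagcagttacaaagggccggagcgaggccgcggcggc

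The Tgfbr2 window held 2 CCAAT boxes, at 85 and 68 bases before the start, a GAGGAA at 57 bases and a CAGAC at 160 bases before it. The Tgfbr1 window held 2 GC boxes and 2 CCAAT boxes and neither GAGGAA nor CAGAC. A second RefSeq window of Tgfbr1, just before the start of Tgfbr1-203 (chr4:47385966-47386215, plus strand), did hold a GAGGAA at 95 bases and a CAGAC at 203 bases before its start. Among windows of members that did not pass the test, those of Igf1 and Tgfb2 held GAGGAA and those of Tgfb2 and Igf1r held CAGAC. The windows of Csf1 and Tgfb1 held neither. These letters are common: of 32851 RefSeq promoter windows of this length, 32.7% held the GC box, 33.8% the CCAAT box, 12.4% TATAAA, 23.3% GAGGAA, 42.2% CAGAC and 6.75% TGANTCA. The motif matches are descriptions of sequence and were not tied to the change in counts by any measurement.

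The deposited rows were transcripts, so the receptors could also be followed by isoform. Tgfbr2 was counted on the single transcript Tgfbr2-201, and Tgfbr1 on 3, of which Tgfbr1-201 took 95.8% to 97.2% of the counts of a library. In a fit over all 37539 transcripts, Tgfbr2-201 was the 1 of 12 member transcripts past both cut-offs (log2 fold change 0.90, edgeR adjusted p = 0.00189), where 0.749% of all transcripts were past both and higher. Tgfbr1-201 had a log2 fold change of 0.54 (adjusted p = 0.00467), which made 2 of 12 at the adjusted p alone, where 0.914% of all transcripts were higher. Without WT-1 the adjusted p of Tgfbr2-201 was 0.00894, so at the transcript level this call held without each library. That of Tgfbr1-201 was 0.0158 without WT-1 and 0.00491 without WT-2, so at the transcript level the adjusted p also passed in these fits.

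Tgfbr1-203, which starts further downstream, was at 1.56 and 2.70 CPM in APP and at 1.86 and 1.81 CPM in WT, and Tgfbr1-202 was between 0.295 and 0.339 CPM in every library. For both of these isoforms the groups overlapped. Tgfbr1-202 shares all of its bases with Tgfbr1-201 and Tgfbr1-203 shares 84.0% of them, so the division of reads between them is uncertain. Tgfbr1-201 and Tgfbr1-202 differ in the coding sequence by 12 bases at the start of an exon (chr4:47393247-47393258, plus strand, from GENCODE M21), 4 codons that Tgfbr1-201 has and Tgfbr1-202 lacks. They are shown in capitals with 15 bases of transcript on each side.

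Tgfbr1-201: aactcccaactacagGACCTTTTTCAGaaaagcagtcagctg

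Tgfbr1-202: aactcccaactacagaaaagcagtcagctg

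The study linked lncRNAs, above all Rpph1, to mRNAs through shared miRNAs, among them miR-330-5p and miR-326-3p. Their mature RefSeq sequences share a seed (bases 2 to 8, in capitals), so a single site in a transcript matches both.

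mmu-miR-330-5p: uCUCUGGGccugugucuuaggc

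mmu-miR-326-3p: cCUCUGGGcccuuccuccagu

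The seed match CCCAGAG occurred in all 3 transcripts of Tgfbr1, once in each, in the 3′ untranslated region at chr4:47410929-47410935 (plus strand, bases 1754 to 1760 of Tgfbr1-201). It is printed here in capitals within a window of 30 bases because Tgfbr1 was the member at an adjusted p under 0.05 that held such a match. Tgfb1, Tgfb3, Igf1 and Igf1r also held matches to this seed.

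Tgfbr1 3′ site: gtttctctgggCCCAGAGgcagccgtgggg

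Tgfbr2 held no match to this seed, nor to those of miR-182-5p, miR-132-3p and miR-484, and neither did Il34. The match is a description of letters: CCCAGAG occurred in 41.6% of 22439 protein-coding transcripts, and miRNAs were not measured in these libraries.

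The insulin-like growth factor pair did not pass the test. Igf1, the ligand (chr10:87859068-87937042, plus strand), was at 11.7 and 10.3 CPM in APP and at 13.5 and 12.9 CPM in WT. Both APP libraries were below both WT libraries, with a log2 fold change of -0.26 (SE 0.11, 95% interval -0.52 to -0.0051) and an adjusted p of 0.399 by edgeR. Transcript Igf1-202 took 93.4% to 97.1% of the Igf1 counts of a library and had a log2 fold change of -0.27 (adjusted p = 0.530). Igf1r, the receptor (chr7:67952827-68233668, plus strand, 21 exons), was at 40.7 and 40.0 CPM in APP and at 40.6 and 35.2 CPM in WT. The groups overlapped, and its log2 fold change was 0.09 (SE 0.086, 95% interval -0.11 to 0.29, adjusted p = 0.756).

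**Figure D2:**
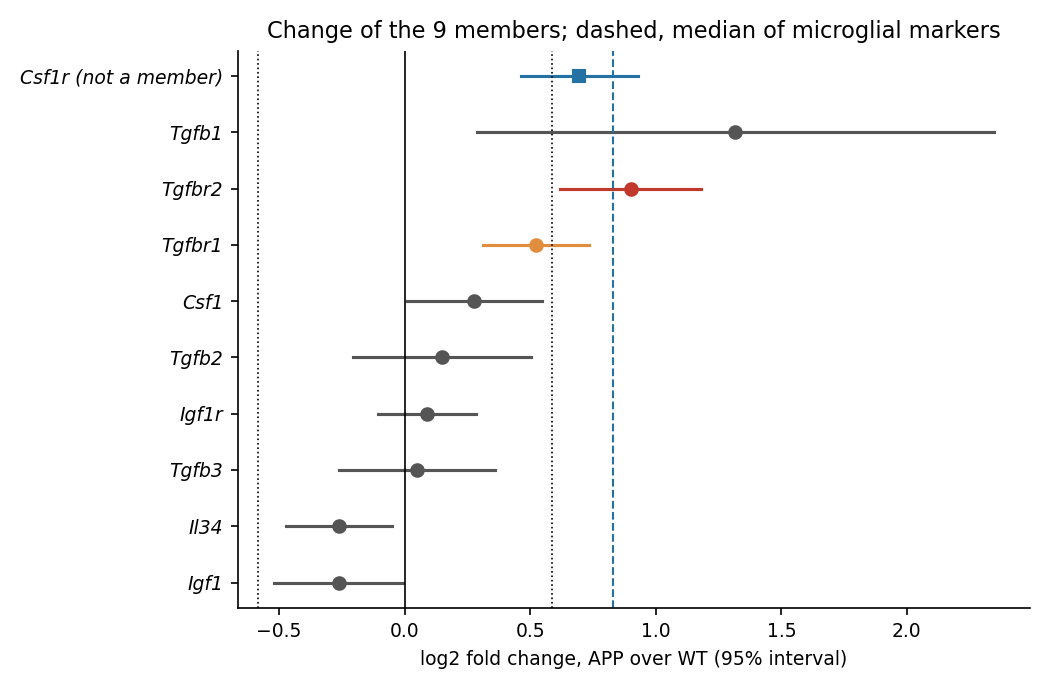
Log2 fold change, APP over WT, of the 9 members (points; horizontal lines are 95% intervals) and of Csf1r (blue square). Red marks both cut-offs passed, orange the adjusted p alone and grey neither; dotted lines stand at a fold change of 1.5 in each direction and the blue dashed line at 0.83, the median of the microglial markers. Tgfbr2 at 0.90 is the member past both cut-offs, and Tgfb1 has the widest interval.

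Levels of different genes were compared per transcript length. In WT cortex the order by mean TPM was Il34 (17.1), Tgfbr1 (14.9), Igf1r (5.07), Tgfb3 (3.65), Csf1 (3.23), Igf1 (3.12), Tgfbr2 (2.85), Tgfb2 (1.19) and, at 0.323 and 0.176 in the 2 libraries, Tgfb1, and no neighbours in this order overlapped between their 2 libraries. IL-34 message was thus above CSF1 message by length in both groups, and the type I TGF-β receptor was above every TGF-β ligand. In APP the order by mean TPM was Tgfbr1 (20.2), Il34 (13.8), Igf1r (5.21), Tgfbr2 (5.13), Csf1 (3.77), Tgfb3 (3.66), Igf1 (2.56), Tgfb2 (1.28) and Tgfb1 (0.617). There Igf1r and Tgfbr2 overlapped, as did Csf1 and Tgfb3. Tgfbr1 stood first in both APP libraries and Il34 in both WT libraries, and Tgfbr2 stood below Igf1, Csf1 and Tgfb3 in WT and above them in APP.

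**Figure D3:**
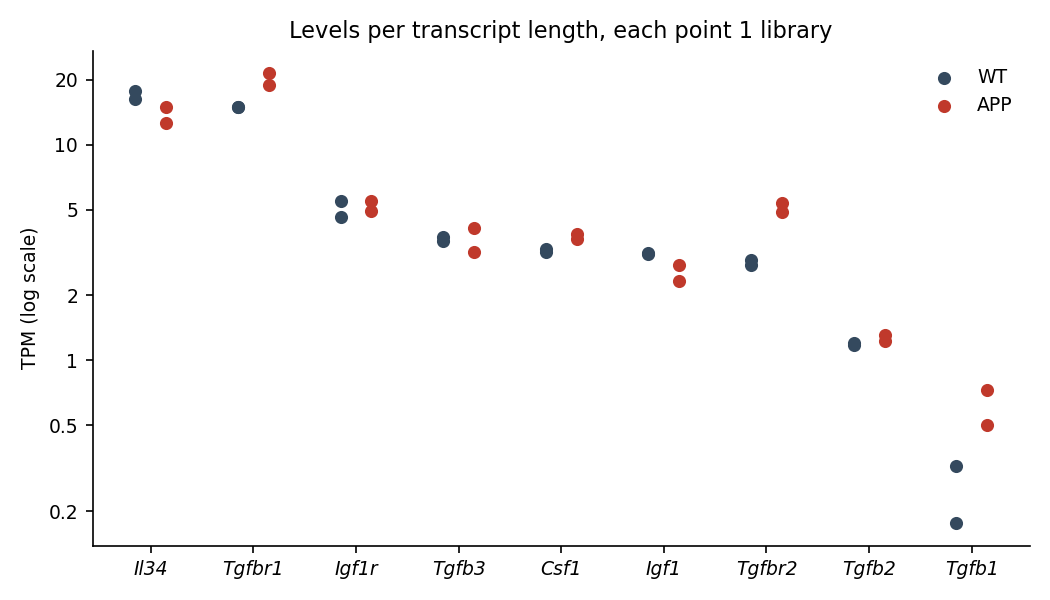
Level per transcript length, in TPM on a log axis, of the 9 members in WT (dark blue) and APP (red) libraries, ordered by the WT mean. Each point is 1 library. Il34 and Tgfbr1 lead in both groups, Tgfb1 is lowest, and Tgfbr2 lies at 4.87 and 5.39 TPM in APP against 2.76 and 2.94 TPM in WT.

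Markers of microglia moved with the groups. All 26 listed markers were counted and none was at 0 in any library. Of all features 0.843% were past both cut-offs and higher in APP, and 15 of these 26 markers were. Their summed level was 707 and 829 CPM in APP and 411 and 429 CPM in WT, and their median log2 fold change was 0.83. In bulk cortex, fewer cells of a type and less RNA per cell cannot be told apart, and the same holds for more. As CPM for every 1000 CPM of summed microglial markers, Tgfbr2 came to 17.2 and 14.5 in APP and to 15.1 and 15.8 in WT. These values overlapped. Tgfbr1 came to 94.8 and 97.8 in APP and to 124 and 122 in WT. Csf1r came to 92.6 and 97.8 in APP and to 114 and 102 in WT. On this scale every member except Tgfb1 and Tgfbr2 was lower in both APP libraries than in both WT libraries. The divisor was itself higher in APP, so a gene that rose less than the summed markers falls on this scale by construction. These lower values are therefore no measure of the level per cell. The part of microglial number in the receptor values was not tested.

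Of the 17 markers of plaque-associated microglia 10 passed both cut-offs, all higher in APP, where 0.843% of all features did so. The median log2 fold change of the 17 was 1.31. Of the 17 markers 3 held at most 3 counts in both libraries of a group. With at least 10 counts required in every library, the median log2 fold change was 0.91. Among other cell types, 2 of 10 astrocyte markers passed both cut-offs (median log2 fold change 0.19), 1 of 8 oligodendrocyte markers did (0.44, with 4 of 8 at the adjusted p alone and all 8 higher in APP), and 0 of 11 neuronal (-0.12), 0 of 10 endothelial (-0.06), 0 of 4 counted choroid plexus (-0.12) and 0 of 6 meningeal markers (-0.25) did. By edgeR at an unadjusted p under 0.05 there were 3 neuronal, 0 endothelial, 0 choroid plexus and 1 meningeal markers. No share over all features was computed at the unadjusted p. DESeq2 and the exact and likelihood ratio tests of edgeR also placed 0 of these 4 marker groups' genes past both cut-offs. At the adjusted p alone, each of these tests gave 2 of 11 neuronal markers and 0 endothelial, choroid plexus or meningeal markers. Of 8 hypothalamic markers 5 were counted and 2, Avp and Sim1, passed both cut-offs. Their 5 levels summed to 3.93 and 5.97 CPM in APP and 0.478 and 0.367 CPM in WT. Of these 5 markers 3 held at most 3 counts in both libraries of a group. The summed oligodendrocyte markers were at 1780 and 1567 CPM in APP and at 1162 and 1286 CPM in WT. The part of hypothalamic tissue or of oligodendrocytes in the values of the members, or of the genes listed around them, was not tested.

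By the shape of their levels over the 4 libraries, the genes nearest to Tgfbr2 were Cd9, Lrig1 and Arpc1b. Likeness was the Euclidean distance between centred log2 CPM over 4 libraries, among 146 other genes past both cut-offs with a mean of at least 1 CPM, so all of them differ between the groups by construction. Cd9, a tetraspanin also listed among the plaque-associated markers, had a distance of 0.0635, with 43.4 and 44.4 CPM in APP and 21.6 and 24.0 CPM in WT. Lrig1 had a distance of 0.109 and Arpc1b, a subunit of the actin-nucleating Arp2/3 complex, of 0.111.

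The genes that store and free TGF-β did not pass the test. All 20 listed genes were counted and 0 passed the cut-offs by edgeR, with 2 at an unadjusted p under 0.05. As 0.881% of all features passed both, 0 of 20 says little about this list. No share over all features was computed at the unadjusted p. The median log2 fold change of the 20 was 0.05. DESeq2 and edgeR's exact and likelihood ratio tests each gave 1 gene at an adjusted p under 0.05 and 0 past both cut-offs. The largest change among those with a mean of at least 1 CPM was that of Itgb5, an integrin subunit that binds latent TGF-β, at 28.1 and 33.4 CPM in APP and 21.4 and 21.9 CPM in WT. Its log2 fold change was 0.51 with an adjusted p of 0.0524 by edgeR. The most negative was that of Itgav, its partner, at -0.05 (adjusted p = 0.843). Nrros, which holds latent TGF-β1 on microglia, was at 5.10 and 4.29 CPM in APP and at 3.21 and 4.82 CPM in WT, which overlapped (log2 fold change 0.23, adjusted p = 0.750).

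Downstream of the receptors, 0 of 23 co-receptors, signalling genes and targets passed the cut-offs by edgeR, with 3 at an unadjusted p under 0.05. As 0.881% of all features passed both, 0 of 23 says little about this list. No share over all features was computed at the unadjusted p. The median log2 fold change of the 23 was -0.0044, with 10 genes above 0 and 13 below. The most negative was that of Pmepa1, a target that limits SMAD signalling, at -0.28 (adjusted p = 0.281 by edgeR). It was at 13.5 and 14.7 CPM in APP and at 16.8 and 17.3 CPM in WT. Both APP libraries were below both WT libraries for Pmepa1. Tgif1, a SMAD co-repressor chosen after its values were seen, was at 0.758 and 0.678 CPM in APP and at 0.182 and 0.169 CPM in WT (adjusted p = 0.123) and was called by the exact and the likelihood ratio test of edgeR. DESeq2 called 0 genes of this list.

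Among 28 IGF ligands, binding proteins and signalling genes, 26 were counted, without Igfbp1 and Igfals. By edgeR 0 passed the cut-offs, with 8 at an unadjusted p under 0.05. As 0.881% of all features passed both, 0 of 26 says little about this list. No share over all features was computed at the unadjusted p. The median log2 fold change of the 26 was -0.05. Irs4, an adaptor of the receptor, had a log2 fold change of 1.43, with 1.34 and 1.78 CPM in APP and 0.637 and 0.508 CPM in WT (adjusted p = 0.0960), and was called by the exact and the likelihood ratio test of edgeR but not by DESeq2. Igfbp6, a binding protein that prefers IGF2, had the most negative, -0.30 (adjusted p = 0.367). Igf2, the second ligand, was at 13.4 and 9.20 CPM in APP and at 13.1 and 10.4 CPM in WT, which overlapped (log2 fold change -0.06, adjusted p = 0.941).

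**Figure D4:**
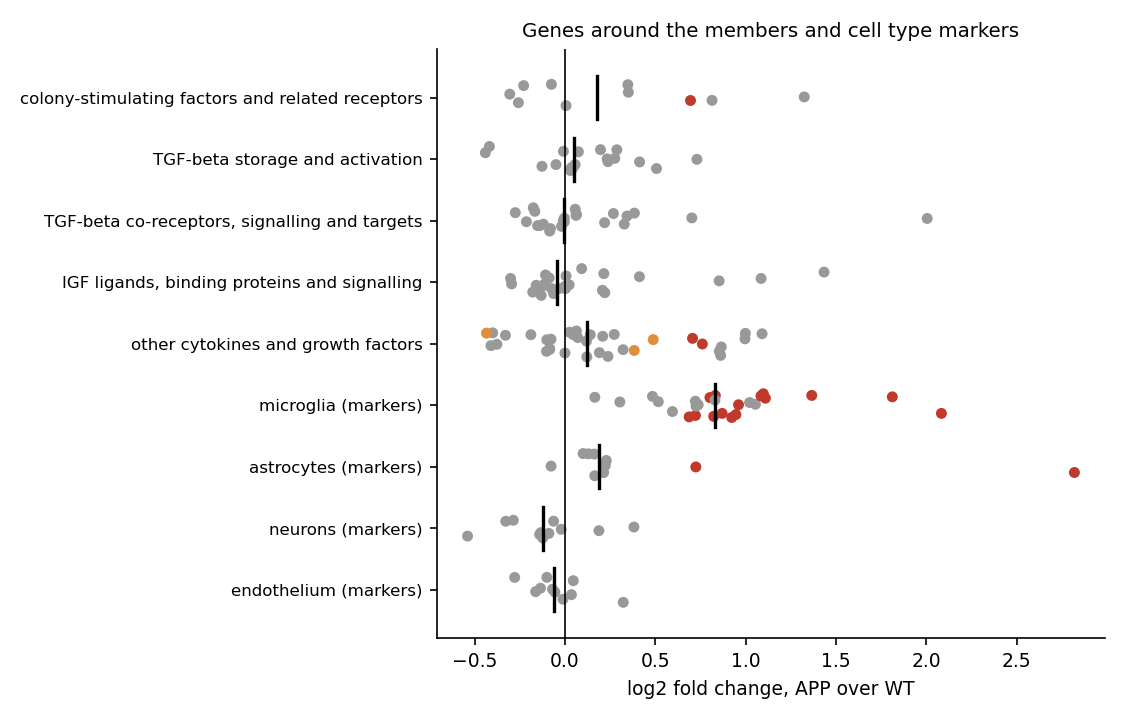
Log2 fold change, APP over WT (horizontal axis), of the genes listed around the members and of markers of 4 cell types. Each point is a gene, shifted vertically at random; black bars are medians, red marks both cut-offs passed, orange the adjusted p alone and grey neither. The microglial markers lie to the right, with a median of 0.83, while the medians of the 5 gene lists lie between -0.05 and 0.18.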

How the data were processed

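From ribosomal RNA-depleted, strand-specific libraries the authors sequenced paired ends, removed pairs that matched ribosomal RNA, aligned the rest to Ensembl mouse transcripts with FANSe2 and up to 7 mismatches, and deposited unnormalized counts of reads per transcript, keeping transcripts with at least 10 reads. The Ensembl release and the rule for reads shared between isoforms are not given in the sources used here. The file's columns of log2 fold change, mean log2 CPM, p-value and FDR hold the authors' own edgeR comparison and were not used, nor were 4 further columns of values per library. WT columns could be assigned to samples by number, but APP columns to the group alone. Reads carry no molecular identifiers.

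Gene sums followed the transcript identifiers of GENCODE M21 (GRCm38), where 36858 of 37539 were found; the other 681 stayed features of their own. Gene symbols were matched ignoring case. Features needed at least 10 counts over the libraries, and all had them. Counts were tested with edgeR 4.0.16 in R 4.3.3 (TMM, quasi-likelihood, no covariate; common dispersion 0.00778, prior degrees of freedom 6.54). TPM used GENCODE transcript lengths. Intervals are 95%. Errors are SDs of 2 libraries or SEs of the fit. Python 3.11.15, pandas 2.3.3 and numpy 2.4.6 were used for summaries. Sequences came from RefSeq tables and GENCODE M21; promoter windows were matched by symbol for 7 of 9 members. The tests were tested on simulated counts.

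Alternatives were DESeq2 1.42.0, edgeR's exact and likelihood ratio tests, other scalings and filters, sums by the deposited symbol, a fold cut-off of 2, and fits without each library. Members and lists were chosen with earlier results of these data known. The text names the members, list genes past both cut-offs, each list's highest and lowest log2 fold change at a mean of at least 1 CPM, Csf1r, Igf2, Nrros, App, Prnp, transcripts holding at least 10% of a member's counts, and the 3 genes nearest to a called member. After their values were seen, Il33, Fgf1, Tgif1, Flt3l, Avp, Sim1 and the minor Tgfbr1 transcripts were added. A gene that the rule names is not reported here.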

Additional observations from a re-analysis of the deposited data

How the results depend on the processing

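Tgfbr2 kept its direction under every alternative run. Under the 8 other tests, scalings, filters and sums that used all libraries it passed both cut-offs, with an adjusted p of at most 0.0165, and the fit without WT-1 was the one without a library that lost the call. The 9 members gave 1 call, and 0 at a fold change of at least 2, where all features gave 162 and 91. Leaving out each library in turn gave 0 to 2 members past both cut-offs, 0 to 2 at the adjusted p alone, 1 to 2 member transcripts and 135 to 602 features. In those fits a lone library is assumed to vary like the other group. The exact test gave 354 features and the likelihood ratio test 391. The colony-stimulating factor list went from 1 call to 2 with DESeq2, the exact test or sums by the deposited symbol and to 3 with the likelihood ratio test. The TGF-β signalling and IGF lists went from 0 to 1 with the exact and likelihood ratio tests. Leaving out a library gave 1 to 3 calls in the colony-stimulating factor list, 0 to 1 in the TGF-β storage list, 0 to 2 in the IGF list and 1 to 4 among the other cytokines, where 2 were called; the highest of each came without APP-3, and the lowest of the last without APP-4. The sign of the log2 fold change turned for Tgfb3, which ranged from -0.075 (without APP-3) to 0.17, or from -0.080 to 0.18 for its transcript, for Igf1r, from -0.0051 (without WT-2) to 0.20, or from -0.0024 to 0.20 for its transcript, and for the choroid plexus median, from -0.012 (without APP-4) to 0.44 (without WT-2), with 0.063 without APP-3 and 0.048 without WT-1. Medians near 0 also crossed it, that of the endothelial markers at 0.021 without WT-1 and that of the TGF-β signalling list at 0.017 without APP-3. The cause was not tested. Tgfb1 had no value with at least 10 counts required in every library, and removing the filter changed nothing because every feature already passed it. No paired analysis was possible because the APP columns, numbered 3 and 4, share no number with the WT columns.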

Other observations

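Cytokines and growth factors outside the 3 pathways were also counted, and most did not differ by the test. Of 41 listed genes 34 were counted, without Il1rn, Il6, Tnf, Il10, Il12b, Osm and Gdf15. By edgeR's quasi-likelihood test 2 passed both cut-offs, both higher in APP, where 0.843% of all features did so. At the adjusted p alone 4 were higher and 1 lower, where 1.02% and 0.12% of all features were. The median log2 fold change of the 34 was 0.12. Pros1, which encodes protein S, a ligand of the receptors Tyro3, Axl and Mertk on phagocytes, was at 22.9 and 21.5 CPM in APP and at 13.1 and 13.1 CPM in WT (log2 fold change 0.76, SE 0.089, adjusted p = 0.00685). The call of Pros1 held without each library. Grn, which encodes the lysosomal and secreted growth factor progranulin, was at 21.7 and 27.5 CPM in APP and at 14.6 and 15.7 CPM in WT (log2 fold change 0.71, SE 0.12, adjusted p = 0.0313). Without WT-1 the adjusted p of Grn was 0.0517, and without APP-4 its log2 fold change was 0.53, so both of these lost the call.

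The other 3 genes at the adjusted p had smaller changes. Il33, an alarmin made by astrocytes and oligodendrocytes, was at 50.8 and 47.9 CPM in APP and at 35.7 and 34.6 CPM in WT (log2 fold change 0.49, adjusted p = 0.0173). Fgf1 was at 49.6 and 49.6 CPM in APP and at 38.9 and 37.0 CPM in WT (log2 fold change 0.38, adjusted p = 0.0404). Vegfa, the vascular growth factor, was lower, at 26.2 and 25.6 CPM in APP and at 36.3 and 33.6 CPM in WT (log2 fold change -0.43, adjusted p = 0.0403). The largest change at a mean of at least 1 CPM was that of Mdk, which encodes midkine, at 0.86 with an adjusted p of 0.170.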
